A study of Homo sapiens with 8 samples.

Results

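The EGF ligands and the ERBB receptors are a small family of growth factors and the receptor tyrosine kinases they act on. The genes described here were chosen by symbol: the ligands EGF, TGFA, HBEGF, BTC, AREG and EREG, and the receptors EGFR, ERBB2, ERBB3 and ERBB4, 10 genes in all. Of these, 8 were listed in at least 1 of the 3 deposited tables, out of 16126 gene symbols in those tables, and 6 were listed in every table. AREG and EREG were listed in none, and BTC and ERBB4 were listed for CWR-R1 and VCaP but not for C4-2B.

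Polyadenylated RNA of prostate cancer cell lines was sequenced as paired ends in 8 libraries. Each of 3 lines was present as an enzalutamide-sensitive form and an enzalutamide-resistant form, marked ENZR; enzalutamide is a drug that blocks the androgen receptor. C4-2B descends from LNCaP and grows without androgen; C4-2B and C4-2BENZR gave 2 libraries each, and both carry a luciferase + GFP transgene. CWR-R1 comes from a prostate tumour xenograft that had relapsed, and VCaP from a metastasis to a vertebra; VCaP is known for its fusion of TMPRSS2 with ERG. These lines gave 1 library in each form, with no transgene named. How resistance was obtained, and whether drug was present at harvest, is not given in the sources used here. Each lineage is thus 1 sensitive line set against 1 resistant line. The C4-2B libraries are labelled biological replicates of 1 line, so their p-values cover the spread between libraries of that line and no other difference between lines.

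A level below is a read count divided by a scaled library size, as deposited, and the levels of a library sum to close to 1000000; 1 read was worth a level of 0.0473 to 0.0675. The libraries held 14503586 to 20248655 reads in listed genes, and the 3 tables were normalised separately. The library labelled VCaPENZR stood apart from VCaP. Over the 12868 genes of all tables its log2 levels were nearest to those of CWR-R1ENZR (r = 0.940), then CWR-R1 (r = 0.890), and further from VCaP (r = 0.728), a description across genes, which are not independent. ERG, the product of the VCaP fusion, was at 428 in VCaP and at 0.179 (3 reads) in the library labelled VCaPENZR, a check made after the libraries had been compared. Of 9 luminal prostate markers, 7 were at least 2-fold lower in it and 2 higher, where 22% and 21.1% of all genes were. KLK2 was at 0.953 against 4945, HOXB13 at 34.8 against 712 and FOLH1 at 26.8 against 1184, while KRT8 was at 3444 against 446. Some luminal markers were lower in the other resistant lines too. In C4-2BENZR 4 of 9 were called lower and 5 higher (29% and 27.8% of all genes), with KLK3 at 49.2 and 48.1 against 2067 and 2024. In CWR-R1ENZR 3 of 7 tested were lower and 2 higher (10.3% and 9.79% of all genes), with STEAP2 at 2.48 against 48.3. Every VCaP comparison below therefore concerns the library labelled VCaPENZR. The summed level of the luminal list was 1704 to 10207 per library, against 12.3 to 66.4 for fibroblast markers (2 of 6 listed, mostly COL1A1), 3.13 to 27.5 for endothelial markers (1 or 2 of 5 listed, mostly VWF) and 2.96 to 18.2 for blood markers (2 or 3 of 6 listed, mostly CD68). COL1A2, PECAM1, CDH5, PTPRC and CD3E were listed in no table.

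The ligands are made as membrane-bound precursors that metalloproteases of the ADAM family cut free. EGF and TGFA bind EGFR, HBEGF and BTC bind both EGFR and ERBB4, and binding lets receptors pair. ERBB2 has no known soluble ligand and serves as the preferred partner of the others, whereas ERBB3 has a weak kinase and passes the signal to PI3K through its docking sites. The pairs activate RAS, RAF, MEK and ERK on one arm and PI3K and AKT on the other. In prostate epithelium the family supports growth and survival and is known to interact with androgen receptor signalling.

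Promoter windows of HBEGF, EGF and ERBB2 are shown first, since most of the comparisons below turn on these 3 members. They are the 250 bases before the annotated start from RefSeq (GRCh38.p14), written 5′ to 3′ in the direction of the gene. Of the 10 members, 9 were matched. Which start these cells use was not tested, so a window need not be the promoter in use. The ERBB2 window may also include part of the gene before it, PGAP3, which was not examined. Capitals mark matches, on either strand, to any of 7 motifs. The AP-1 site was searched as TGANTCA and the GC box as GGGCGG. The TATA box was searched as TATAAA and the cAMP response element as TGACGTCA. The androgen receptor half-site was searched as AGAACA, the EGR1 site as GCGGGGGCG and the ETS site as CCGGAAG, and a GC box and an EGR1 site can overlap. The HBEGF window is chr5:140346604-140346853 on the minus strand, the EGF window chr4:109912633-109912882 on the plus strand and the ERBB2 window chr17:39687844-39688093 on the plus strand.
HBEGF: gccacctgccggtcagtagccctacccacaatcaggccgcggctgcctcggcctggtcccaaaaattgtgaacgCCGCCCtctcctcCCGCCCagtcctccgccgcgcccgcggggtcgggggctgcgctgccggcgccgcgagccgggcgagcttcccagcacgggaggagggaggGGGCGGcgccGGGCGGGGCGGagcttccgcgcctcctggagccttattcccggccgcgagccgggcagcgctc
EGF: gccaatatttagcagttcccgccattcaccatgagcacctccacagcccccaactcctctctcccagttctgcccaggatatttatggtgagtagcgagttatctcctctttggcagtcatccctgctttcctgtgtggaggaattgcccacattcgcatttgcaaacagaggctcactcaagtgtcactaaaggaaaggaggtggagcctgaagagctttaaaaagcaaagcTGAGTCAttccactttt
ERBB2: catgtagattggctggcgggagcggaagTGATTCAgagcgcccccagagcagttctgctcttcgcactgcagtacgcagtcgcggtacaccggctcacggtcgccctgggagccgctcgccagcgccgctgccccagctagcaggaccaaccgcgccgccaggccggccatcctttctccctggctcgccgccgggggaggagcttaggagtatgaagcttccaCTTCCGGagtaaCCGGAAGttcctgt

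The 3 windows differ in composition. HBEGF has 76.4% GC and 5 GC boxes, 1 pair of which overlap, EGF has 48.8% GC and 1 AP-1 match, and ERBB2 has 65.6% GC, 1 AP-1 match and 2 ETS matches. Over 35116 promoters the median GC was 58%, and a GC box was in 42.6%, an AP-1 match in 6.57% and an ETS match in 8.52%. The other motifs were in 10.7% (TATA box), 1.65% (cAMP response element), 12.4% (androgen receptor half-site) and 4.72% (EGR1 site), and in none of these 3 windows. Among the other members TGFA (75.6% GC) had 3 GC boxes and EGFR (73.6% GC) had 2, ERBB4 had 1 GC box and 1 androgen receptor half-site, AREG had 1 GC box, 1 TATA box and 1 cAMP response element, EREG had 1 TATA box, and BTC had no match. A match describes letters in a window and is not a bound site.

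**Figure D1:**
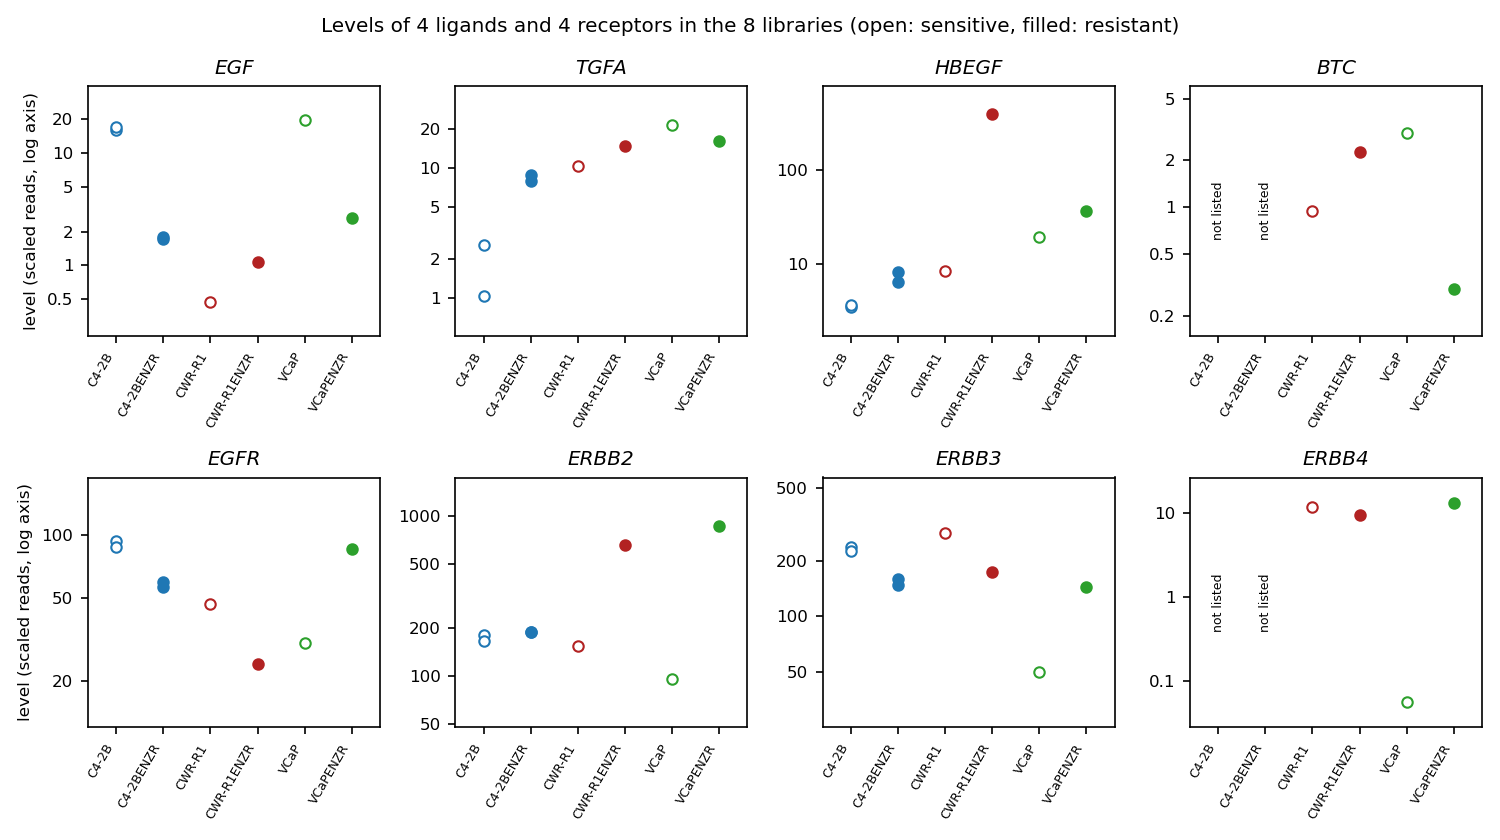
Level (reads scaled by library size, log axis) of each listed ligand (top) and receptor (bottom) in every library; open circles are sensitive, filled circles resistant, 2 libraries per C4-2B group and 1 per other group. HBEGF in CWR-R1ENZR (395) and ERBB2 in CWR-R1ENZR (662) and in the library labelled VCaPENZR (868) lie far above their sensitive counterparts, and the tables were normalised separately.

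In C4-2BENZR the ligand EGF fell 9.46-fold while TGFA rose 4.63-fold and HBEGF rose 2.07-fold, and the receptors EGFR and ERBB3 fell 1.56-fold and 1.52-fold. ERBB2 differed by less than the test could call. The TGFA ratio rests on low C4-2B levels and was 8.13 without C4-2B replicate 2 and 3.24 without C4-2B replicate 1. Of the 6 members tested, 5 passed (2 higher, 3 lower; limma, Benjamini-Hochberg adjusted p below 0.05 over 13280 genes, 2 libraries against 2). Of all genes tested 56.8% passed (27.8% higher, 29% lower), and the members' count is to be read against that share. Of all genes, 9.92% passed with a change of at least 2-fold on the log2(level + 1) scale (6.16% higher, 3.77% lower), among them EGF and TGFA. In RNA from bulk cultures, fewer cells that express a gene and less of its RNA per cell cannot be told apart.

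EGF, the founding ligand of the family, was at 16.0 and 17.1 in the C4-2B libraries and at 1.70 and 1.80 in the C4-2BENZR libraries. The groups lay far apart, and the replicates of each were close. The change was −2.67 on the log2(level + 1) scale (SE 0.17; limma adjusted p = 1.54e-09). EGF was the member with the largest change in C4-2B.

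TGFA, which binds EGFR as EGF does, was at 1.03 (20 reads) and 2.59 (50 reads) in C4-2B and at 8.84 and 7.93 in C4-2BENZR. The C4-2B replicates were further apart than for the other ligands, and both were below both resistant libraries. The change was 1.80 on the log2(level + 1) scale (SE 0.24; limma adjusted p = 7.42e-06). HBEGF, a ligand that binds heparin at the cell surface, was at 3.40 and 3.62 in C4-2B and at 6.33 and 8.22 in C4-2BENZR, a change of 0.87 (SE 0.19; limma adjusted p = 0.000862). The 3 ligands measured thus ended at a mean level of 1.75 ± 0.0665 for EGF, 8.38 ± 0.638 for TGFA and 7.28 ± 1.34 for HBEGF in C4-2BENZR (SD, n = 2 libraries).

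EGFR, the receptor of all of these ligands, was at 93.7 and 87.2 in C4-2B and at 59.5 and 56.4 in C4-2BENZR (log2 change −0.63, SE 0.07; limma adjusted p = 1.09e-06). ERBB3 was at 239 and 227 in C4-2B and at 159 and 148 in C4-2BENZR (log2 change −0.60, SE 0.06; limma adjusted p = 1.61e-07). Both receptors were lower in each resistant library than in each sensitive one. ERBB2 was at 180 and 165 in C4-2B and at 189 and 188 in C4-2BENZR. Its groups did not overlap either, but the change was 0.13 with a 95% interval of 0.01 to 0.25 (limma adjusted p = 0.0602). It passed with edgeR on the recovered reads (adjusted p = 0.0471) and without C4-2B replicate 1 (limma adjusted p = 0.0164), and not with DESeq2 (0.0958) or without C4-2B replicate 2 (0.409). With the replicate number as a block it passed (limma adjusted p = 0.00963). When libraries were scaled by total counts alone it passed too (0.23, limma adjusted p = 0.00149), where the median of all genes was itself at 0.10. The 2 groups did not overlap for any of the 6 members, as was the case for 77.4% of all genes tested (38.4% higher, 38.9% lower).

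Some markers of other cell types moved with these groups. COL1A1, a fibroblast collagen, was at 15.1 and 12.3 in C4-2B and at 53.4 and 48.2 in C4-2BENZR. The summed endothelial markers were at 8.41 and 7.61 against 4.77 and 4.98, and the summed blood markers at 15.9 and 18.2 against 10.1 and 12.6, both lower in the resistant libraries. Their part in the member changes was not tested. The defining markers COL1A2, PECAM1, CDH5 and PTPRC were not listed.

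CWR-R1ENZR differed from CWR-R1 above all in 2 members: HBEGF was 47.6-fold higher and ERBB2 4.32-fold higher. EGFR and ERBB3 were lower, 1.94-fold and 1.64-fold, and TGFA was 1.43-fold higher. With 1 library per form there is no replicate check and no test; each interval below is an exact 95% binomial (Clopper-Pearson) interval of the reads, which covers counting error only, and replicates of C4-2B differed by more than counting error (chi-square per gene 3.99 and 5.67, where 1 is counting error alone). Of the 6 members with a level of at least 5 in either library, 2 were at least 2-fold higher on the log2(level + 1) scale and 0 lower, where 20.1% of 12462 genes were at least 2-fold apart (9.79% higher, 10.3% lower).

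HBEGF was at 8.30 (123 reads) in the sensitive and at 395 (5897 reads) in the resistant library, an interval of 39.8 to 57.4 for the ratio. It was the largest difference of any member in this lineage. TGFA was at 10.4 and 14.8, a ratio of 1.43 (1.16 to 1.76). EGF was at 0.472 (7 reads) and 1.07 (16 reads), a ratio of 2.27 whose interval of 0.884 to 6.53 includes 1, so that no difference was detectable at this depth. BTC, betacellulin, was at 0.945 (14 reads) and 2.28 (34 reads), a ratio of 2.41 (1.26 to 4.87). EGF and BTC were under the minimum level and were not counted.

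ERBB2 was at 153 (2270 reads) in CWR-R1 and reached 662 (9881 reads) in CWR-R1ENZR, a ratio of 4.32 (4.13 to 4.53). It was the sole receptor of the 4 at a higher level in the resistant library. EGFR was at 46.6 and 24.1 (1.94-fold lower, 1.70 to 2.21) and ERBB3 at 286 and 174 (1.64-fold lower, 1.56 to 1.73). ERBB4, which binds HBEGF and BTC, was at 12.0 and 9.65, a ratio of 0.804 whose interval of 0.641 to 1.01 includes 1. The endothelial marker VWF was at 5.73 and 26.5. Of the fibroblast markers, COL1A1 was at 22.2 and 63.6. LUM went the other way, from 11.6 (172 reads) in the sensitive to 2.81 (42 reads) in the resistant library. The part of these markers in the member differences was not tested, and PECAM1 and CDH5 were not listed.

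The library labelled VCaPENZR differed from VCaP in every receptor. ERBB2 was 9.06-fold higher, ERBB3 2.90-fold, EGFR 2.80-fold and ERBB4 234-fold higher, the last against a single read, while EGF was 7.58-fold lower. Of the 7 members with a level of at least 5 in either library, 4 were at least 2-fold higher and 1 lower, where 43.1% of 12502 genes were at least 2-fold apart (21.1% higher, 22% lower). ERBB4 was at or under a level of 2 in VCaP, so it could pass the minimum only by being at least 2-fold higher; of the other 6 members 3 were higher and 1 lower, against 18.5% and 17.4% of the genes above a level of 2 in both libraries. These values set 2 libraries side by side, and the second did not resemble VCaP in the markers given above.

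EGF was at 19.9 (349 reads) in VCaP and at 2.62 (44 reads) in the library labelled VCaPENZR, 7.58-fold lower with an interval of 5.53 to 10.6. BTC was at 3.02 (53 reads) and 0.298 (5 reads), 10.1-fold lower (4.08 to 32.5), under the minimum level. The other ligands moved less. TGFA was at 21.5 and 16.3 (1.32-fold lower, 1.12 to 1.54), and HBEGF was at 19.2 and 36.7 (1.91-fold higher, 1.67 to 2.19).

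ERBB2 was at 95.8 (1683 reads) in VCaP and at 868 (14585 reads) in the library labelled VCaPENZR, a ratio of 9.06 (8.62 to 9.54). EGFR was at 30.3 and 84.9 (2.54 to 3.10 for the ratio) and ERBB3 at 49.9 and 144 (2.68 to 3.13). All 4 receptors were thus higher. ERBB4 had 1 read in VCaP, a level of 0.0569, and 224 reads in the library labelled VCaPENZR, a level of 13.3; with 1 read the ratio of 234 has an interval of 41.6 to 9294. For comparison, the CWR-R1 and CWR-R1ENZR levels of ERBB4 were 12.0 and 9.65, from a table normalised separately. VWF was at 3.13 in VCaP and 18.6 in the library labelled VCaPENZR, and the summed blood markers were at 2.96 and 12.4. Within the blood list CD68 was at 0.512 and 9.82, while HBA1 was at 2.45 and 1.37. The summed fibroblast markers were lower, at 29.5 and 17.3. Of these, LUM was at 21.2 and 0.238 (4 reads) and COL1A1 at 8.25 and 17.0. The part of these markers in the member differences was not tested.

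**Figure D2:**
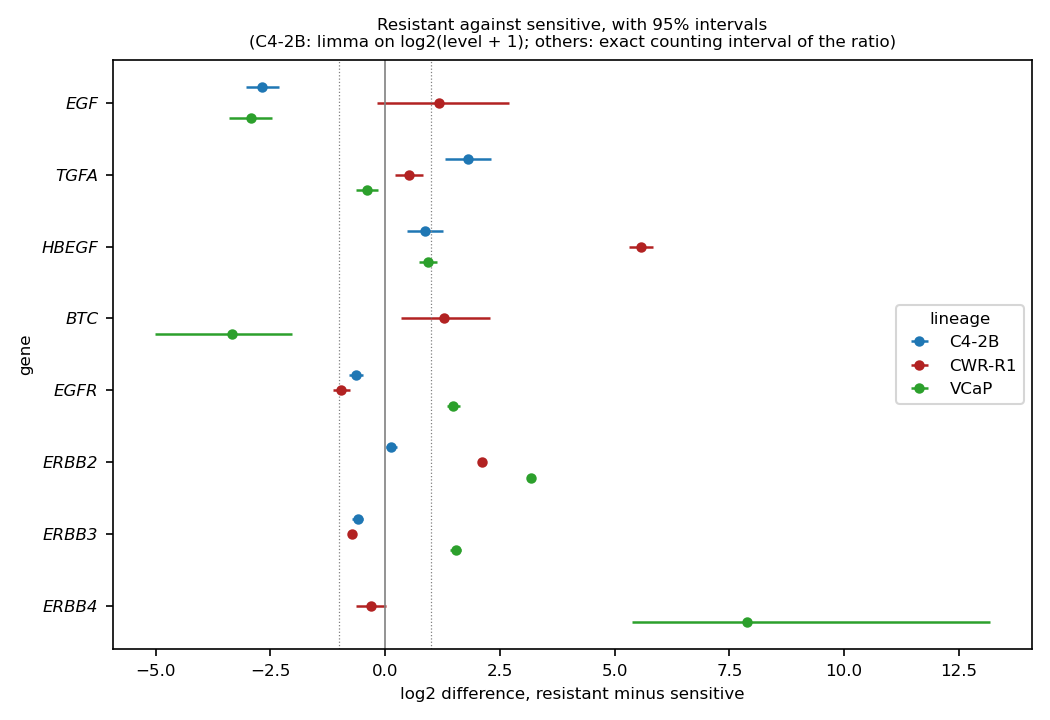
Difference of each member between the resistant and the sensitive form (log2, x axis) with its 95% interval, coloured by lineage; for C4-2B it is the limma change of log2(level + 1), and for CWR-R1 and VCaP the log2 ratio of levels with its exact counting interval. Dotted lines mark 2-fold, of the level for CWR-R1 and VCaP and of level + 1 for C4-2B. HBEGF in C4-2B, 2.07-fold by mean levels, thus lies inside them at 0.87. EGF lay to the left of zero in C4-2B and VCaP and had an interval over zero in CWR-R1, and ERBB2 lay furthest right of the receptors in CWR-R1 (4.32-fold).

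Set across all libraries, with the caution that the tables were normalised separately and that counting intervals are narrower than replicate spread, ERBB2 was highest in the library labelled VCaPENZR (868) and then CWR-R1ENZR (662), C4-2BENZR (188), C4-2B (172), CWR-R1 (153) and VCaP (95.8), with no neighbours in that order overlapping. All 3 groups labelled resistant thus stood above all 3 sensitive groups for ERBB2, an order that no other member listed in all tables had. The C4-2B step of it was not called (limma adjusted p = 0.0602), and the library labelled VCaPENZR was nearest to CWR-R1ENZR (r = 0.940). Overlap here and below was judged by the range of replicates in the C4-2B groups and by 95% Poisson intervals of the reads elsewhere, which are unlike spreads. HBEGF was highest in CWR-R1ENZR (395), followed by the library labelled VCaPENZR (36.7), VCaP (19.2), CWR-R1 (8.30), C4-2BENZR (7.28) and C4-2B (3.51), where CWR-R1 and C4-2BENZR overlapped.

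EGF fell into a high pair, VCaP (19.9) and C4-2B (16.5), and a low set, the library labelled VCaPENZR (2.62), C4-2BENZR (1.75), CWR-R1ENZR (1.07) and CWR-R1 (0.472), of which the last 3 overlapped with their neighbours. TGFA ran from 21.5 in VCaP through 16.3 in the library labelled VCaPENZR, 14.8 in CWR-R1ENZR, 10.4 in CWR-R1 and 8.38 in C4-2BENZR to 1.81 in C4-2B; VCaPENZR overlapped with CWR-R1ENZR, and CWR-R1 with C4-2BENZR. BTC ran from 3.02 in VCaP through 2.28 in CWR-R1ENZR and 0.945 in CWR-R1 to 0.298 in the library labelled VCaPENZR, with all neighbours overlapping. BTC was thus low in every library that listed it.

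EGFR was highest in C4-2B (90.4) and in the library labelled VCaPENZR (84.9), which overlapped, and then in C4-2BENZR (58.0), CWR-R1 (46.6), VCaP (30.3) and CWR-R1ENZR (24.1). ERBB3 was highest in CWR-R1 (286), followed by C4-2B (233), CWR-R1ENZR (174), C4-2BENZR (154), the library labelled VCaPENZR (144) and VCaP (49.9), where C4-2BENZR and the library labelled VCaPENZR overlapped. ERBB4 was at like levels in the library labelled VCaPENZR (13.3), CWR-R1 (12.0) and CWR-R1ENZR (9.65), which overlapped as neighbours, and at 1 read in VCaP.

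Between genes, levels were compared per kilobase of the longest coding transcript (GENCODE version 29). In C4-2B the most abundant member per kilobase was ERBB3 (40.3 and 38.4), above ERBB2 (37.5 and 34.4), and in C4-2BENZR it was ERBB2 (39.5 and 39.2), above ERBB3 (26.9 and 25.1). CWR-R1 also had ERBB3 (48.3) above ERBB2 (32.0). In CWR-R1ENZR the ligand HBEGF came first (166 per kilobase), then ERBB2 (138) and ERBB3 (29.4). In VCaP the order was ERBB2 (20.0), ERBB3 (8.43) and HBEGF (8.04), the last pair trading places when all exons were counted, and in the library labelled VCaPENZR it was ERBB2 (181), ERBB3 (24.4) and HBEGF (15.4). ERBB2 was thus above ERBB3 per kilobase in each resistant library, and ERBB3 above ERBB2 in the sensitive libraries except VCaP. When all exons were counted the order in C4-2B held only narrowly, with ERBB3 at 32.1 and 30.6 against ERBB2 at 31.7 and 29.1.

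The resistance changes of the lineages were then compared. On the log2(level + 1) scale ERBB2 was higher in the resistant form by 0.13 in C4-2B, 2.11 in CWR-R1 and 3.17 in VCaP, and HBEGF by 0.87, 5.41 and 0.90. EGF was lower by 2.67 in C4-2B and 2.53 in VCaP. A limma fit to the 3 within-table ratios called 0 of the 6 members and 0 of 12868 genes (0%), and no other tool was run for it; at an unadjusted p below 0.05 it gave 680 genes (5.28%), among them 1 member, ERBB2 (mean log2 change 1.80, 95% interval 0.33 to 3.27; limma adjusted p = 0.830). The mean change of HBEGF was 2.39 (−0.07 to 4.86) and that of EGF −1.57 (−3.46 to 0.33), both with a limma adjusted p of 0.830. Without the VCaP lineage 0 members passed as well, with a mean of 1.12 for ERBB2, 3.14 for HBEGF and −1.09 for EGF.

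Differences between lineages were tested in a limma fit over all 8 libraries, in which the spread comes from the C4-2B replicates alone and the single libraries are assumed to vary like them. No spread between cultures of CWR-R1 or VCaP enters these p-values, so they hold only under that assumption, which was not tested. Against C4-2B, the difference between the CWR-R1 libraries was greater by 3.17 for EGF (adjusted p = 4.18e-06), by 4.55 for HBEGF (2.02e-08) and by 1.97 for ERBB2 (8.09e-09), and lower for TGFA (−1.32, adjusted p = 0.0126, a call lost without either C4-2BENZR replicate, at 0.123 and 0.0975). These are 4 of 6 members, where 54.9% of 12868 genes passed (27% greater, 27.9% lower). The declines of EGFR and ERBB3 were not shown to differ between these lineages, with differences of −0.29 (95% interval −0.58 to −0.01, adjusted p = 0.0731) and −0.11 (−0.33 to 0.10, adjusted p = 0.346). The EGF difference sets the fall in C4-2B against a change in CWR-R1 that rests on 7 and 16 reads.

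The difference between the VCaP libraries exceeded the change in C4-2B by 2.09 for EGFR (limma adjusted p = 2e-08), by 3.04 for ERBB2 (4.33e-11) and by 2.11 for ERBB3 (1.51e-09), and was lower for TGFA (−2.17, adjusted p = 0.000289). Under that assumption 4 of 6 members passed, among them all 3 receptors tested, where 71.5% of genes passed (36.5% greater, 35% lower). EGF and HBEGF were not shown to differ, with 0.15 (95% interval −0.54 to 0.83, adjusted p = 0.694) and 0.04 (−0.49 to 0.56, adjusted p = 0.898). These comparisons share the C4-2B libraries.

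Other ligands of the family were scarce. EPGN and NRG1, which encode epigen and neuregulin 1, were listed in no table, and none of the listed neuregulins reached the minimum levels. NRG4, a ligand of ERBB4, was at 0.774 and 0.621 in C4-2B, 1.84 and 0.927 in C4-2BENZR, 1.42 in VCaP and 0.357 in the library labelled VCaPENZR. NRG3, another ligand of ERBB4, had 29 reads (1.96) in CWR-R1 against 8 reads (0.536) in CWR-R1ENZR. NRG2 had 51 reads in VCaP, a level of 2.90, and no read in the library labelled VCaPENZR, so that against a floor of 3 reads it was at least 16.3-fold lower.

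Of the proteases that release the ligands, and their regulators, 3 of 8 tested passed as higher in C4-2BENZR and 1 as lower, where 27.8% and 29% of all genes did, with a median log2 change of 0.09 against −0.00 for all genes. ADAM9 fell 2.25-fold, from 350 ± 12.6 to 156 ± 5.22 (SD, n = 2 libraries; limma adjusted p = 2.37e-11). ADAM17, the main protease for TGFA and HBEGF, was at 22.1 ± 0.252 against 17.1 ± 2.55 and ADAM15 at 366 ± 8.80 against 329 ± 12.4, and both calls were lost without C4-2BENZR replicate 1 (limma adjusted p = 0.0692 and 0.133) and without C4-2B replicate 2 (0.188 and 0.128). The ADAM17 call was also lost without C4-2BENZR replicate 2 (0.0513) and with DESeq2 (adjusted p = 0.0551). The third that passed as higher was RHBDL2, a membrane protease under the minimum level for naming, at 4.66 ± 0.778 against 2.04 ± 0.762 (limma adjusted p = 0.00220). In CWR-R1, 3 of 8 were higher by at least 2-fold and 0 lower, where 9.79% of all genes were higher. Of these TIMP3 and ADAM8 were at or under a level of 2 in CWR-R1 and could pass the minimum only by being higher. TIMP3, a secreted inhibitor of ADAM17, was at 0.0675 (1 read) and 50.5, a ratio of 748 (134 to 29582), ADAM8 was at 0.877 and 5.83, and RHBDF1, which carries ADAM17 to the cell surface, was at 32.6 and 105. In VCaP, 3 of 7 were higher and 3 lower, where 21.1% and 22% of all genes were: ADAM15 was at 97.3 and 490, RHBDF2 at 13.9 and 35.7, RHBDF1 at 41.4 and 84.6, ADAM9 at 563 and 165, ADAM10 at 247 and 123, and ADAM19 at 6.03 and 0.179 (3 reads), which could pass the minimum only by being lower.

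Of the adaptors, RAS, RAF, MEK and ERK genes, 4 of 16 rose in C4-2BENZR and 4 fell (median 0.08), a share near that of all genes, of which 27.8% rose and 29% fell: the adaptor SHC1 was at 131 ± 4.02 against 202 ± 2.52 and the kinase MAP2K2 at 136 ± 8.30 against 197 ± 4.07, while the exchange factor SOS1 rose to 26.6 ± 0.463 from 19.4 ± 0.633. In CWR-R1, 1 of 16 was at least 2-fold apart (median 0.06), where 20.1% of all genes were, MAPK3, which encodes ERK1, at 72.4 and 162. In VCaP, 1 was higher and 1 lower (median 0.15), where 21.1% and 22% of all genes were, MAPK3 at 25.2 and 284 and HRAS at 53.0 and 22.5.

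On the PI3K and AKT arm, 1 of 9 genes rose and 4 fell in C4-2B (median −0.16), near the 56.8% of all genes that passed. The regulatory subunit PIK3R1 rose from 30.6 ± 0.808 to 61.2 ± 2.15, while the sister subunit PIK3R2 fell from 224 ± 10.1 to 142 ± 4.48, AKT2 from 199 ± 12.1 to 134 ± 8.07 and PDPK1, the kinase upstream of AKT, from 152 ± 0.0906 to 116 ± 3.40 (limma adjusted p at most 2.41e-05 for each; SD, n = 2 libraries). In CWR-R1, 0 of 9 were higher and 1 lower (median −0.04), AKT1 at 710 and 303, where 10.3% of all genes were lower. In VCaP, of the 9 genes above a level of 2 in both libraries 1 was higher and 1 lower (median −0.14), PIK3CA at 12.7 and 26.7 and MTOR at 197 and 55.4, where 18.5% and 17.4% of such genes were.

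Of the receptor inhibitors and turnover genes, 9 of 14 rose in C4-2BENZR, 0 fell and 5 did not pass. Of all genes 27.8% rose and 29% fell, and the medians were 0.28 for the list and −0.00 for all genes. The list joins inhibitors with genes of receptor turnover, so its count does not by itself measure restraint of the receptors. The 5 that did not pass were LRIG3, CBLB, SOCS4, RNF41 and USP8, with changes of 0.01 to 0.14. The tetraspanin CD82 rose 2.95-fold to 12.4 ± 1.27, LRIG1, which promotes degradation of the receptors, rose from 89.3 ± 2.27 to 136 ± 2.41, LRIG2 from 10.5 ± 1.91 to 16.4 ± 1.67 and the ubiquitin ligase CBLC from 11.3 ± 0.922 to 17.2 ± 2.10. In CWR-R1, 2 of 14 were higher and 1 lower (median 0.21), where 9.79% and 10.3% of all genes were: CBLB at 16.9 and 55.3, CBLC at 14.6 and 39.9, and LRIG1 at 38.7 and 18.2. LRIG1 thus moved in opposite directions in these lineages, a difference that was not tested. In VCaP, 3 were higher and 2 lower (median −0.03), where 21.1% and 22% of all genes were. ERRFI1, an inhibitor of EGFR and ERBB2, was at 51.8 and 611, CBLC at 8.08 and 45.1 and CBLB at 10.4 and 43.1, while RNF41, which targets ERBB3, was at 144 and 65.9 and SOCS5 at 28.6 and 12.9.

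Of the feedback inhibitors that ERK signalling is known to raise, 6 of 9 were at least 2-fold higher in CWR-R1ENZR and 0 lower, where 9.79% of all genes were higher. One of the 6, DUSP5, was at or under a level of 2 in CWR-R1 and could pass the minimum only by being higher; of the other 8, 5 were higher (median log2 difference 1.62), against 8.07% of such genes. In the library labelled VCaPENZR 6 of 8 were higher and 0 lower (median 2.50 against 0.00 for all genes), where 21.1% of all genes were higher. SPRY1 in CWR-R1 (27.6 and 19.8) and SPRY4 in VCaP (44.2 and 38.8) were lower by less than 2-fold. The phosphatase DUSP4 was at 51.8 and 327 in CWR-R1 and at 29.3 and 915 in VCaP. In CWR-R1 the phosphatases DUSP5 and DUSP6 were at 1.62 and 70.2 and at 8.97 and 95.03, and SPRED3 at 2.70 and 18.4. In VCaP DUSP5 and DUSP6 were at 2.11 and 241 and at 2.45 and 67.3, and SPRED1 at 5.46 and 61.3. In C4-2B, 1 of 7 rose and 3 fell (median 0.06), where 27.8% of all genes rose and 29% fell. SPRED1 rose from 15.5 ± 0.472 to 25.9 ± 1.92. SPRY1 fell from 6.23 ± 0.710 to 1.69 ± 0.721 (limma adjusted p = 3.2e-05) and SPRY2 from 1.86 ± 0.288 to 0.615 ± 0.133 (limma adjusted p = 0.00625, but 0.0726 when C4-2BENZR replicate 2 was left out); both were under the minimum level for naming. SPRED2 was at 31.2 ± 1.23 against 37.7 ± 0.497, a call lost without C4-2BENZR replicate 1 (limma adjusted p = 0.125), without C4-2B replicate 2 (0.0570), when scaled by total counts alone (0.122) and with DESeq2 (0.0643).

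Of the transcripts known to follow ERK activity, 5 of the 9 that reached the minimum in VCaP (FOS, IER3, ETV4, ETV5 and EPHA2) were at or under a level of 2 in VCaP and could reach it only by being higher in the library labelled VCaPENZR. Of the other 4, 3 were at least 2-fold higher and 0 lower, against 18.5% of such genes: EGR1 at 7.86 and 66.4, IER2 at 33.9 and 162 and PHLDA1 at 7.34 and 21.1. The ETS factor ETV4 was at 94.8 against no read in VCaP, or at least 555-fold higher with 3 reads as the floor, ETV5 was at 0.114 (2 reads) and 80.0, a ratio of 702 (194 to 5805), the receptor EPHA2 at 1.59 and 141, and IER3 at 0.285 (5 reads) and 56.2. In CWR-R1, 3 of 10 were higher and 0 lower (median 0.76), where 9.79% of all genes were higher: IER3 at 9.45 and 105, PHLDA1 at 6.88 and 39.2 and ETV4 at 13.3 and 50.7. In C4-2B, 1 of 8 rose and 5 fell (median −0.27), where 27.8% of all genes rose and 29% fell. PHLDA1 fell 7.34-fold, from 109 ± 8.53 to 14.9 ± 1.51 (limma adjusted p = 4.99e-13). IER2 was at 62.0 ± 3.33 against 76.2 ± 1.38 and cyclin D1, CCND1, at 331 ± 19.1 against 392 ± 5.12. Under the minimum level for naming, ETV4 rose from 0.465 ± 0.291 to 2.63 ± 0.285 (limma adjusted p = 0.000167). ETV5 was at 0.168 ± 0.171 against 1.24 ± 0.222 (limma adjusted p = 0.00409, but 0.0766 when C4-2BENZR replicate 1 was left out). IER3 was at 2.23 ± 0.283 against 3.62 ± 0.210 (limma adjusted p = 0.0381), a call lost with edgeR (0.0773), with DESeq2 (0.161), with total counts as the scaling (0.0721) and without any one of the 4 libraries (0.0691 to 0.233).

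**Figure D3:**
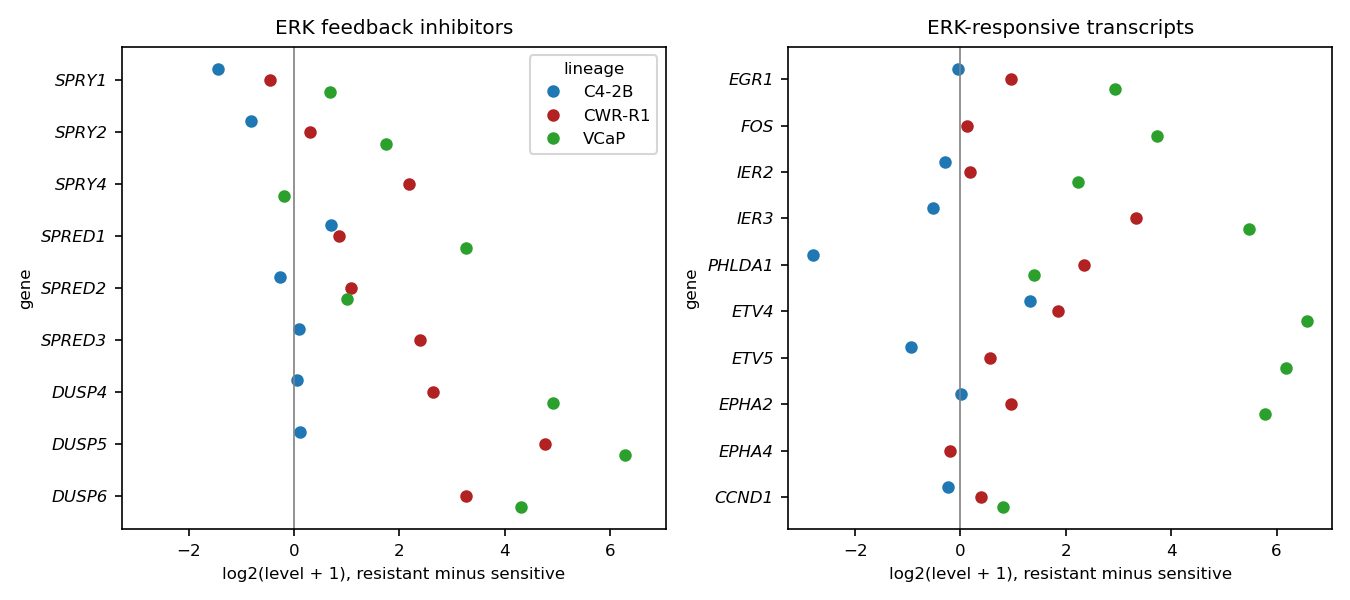
Difference in log2(level + 1) between resistant and sensitive forms (x axis) for each listed and tested ERK feedback inhibitor (left) and ERK-responsive transcript (right), coloured by lineage. In CWR-R1 and VCaP most points lie right of zero; in C4-2B the medians are 0.06 (left) and −0.27 (right), with SPRED1 (0.70) and ETV4 (1.32) to the right of zero and PHLDA1 (−2.80) furthest left.

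The genes on either side of ERBB2 on chromosome 17 were examined after the levels had been seen, taking the 3 nearest tested genes in each direction in RefSeq order. In CWR-R1, GRB7, an adaptor that binds ERBB2, was at 38.4 and 142 and GSDMB at 7.89 and 21.8, while PGAP3 and MIEN1 differed by 0.87 and 0.20 on the log2(level + 1) scale, less than 2-fold. TCAP (0.742 and 5.56) and PNMT (0.337 and 9.85) reached the minimum level only in CWR-R1ENZR and were thus taken as neighbours because they were high there, so no count over the neighbours is given. In VCaP, MIEN1 was at 40.8 and 277, GRB7 at 17.1 and 246, PGAP3 at 41.4 and 29.7 and IKZF3 at 7.74 and 2.86. TCAP (0.342 and 11.9) and PNMT (0.285 and 34.8) again reached the minimum only in the resistant library. In C4-2B, where ERBB2 was not called, 2 rose and 2 fell (median −0.07), where 27.8% and 29% of all genes did. GRB7 rose from 10.9 to 19.8 and IKZF3 from 16.1 to 23.1, while PGAP3 and MIEN1 fell. MIEN1 overlaps ERBB2 in the annotation, and where counting ignores strand their shared reads cannot be told apart; strand use is not given in the sources used here. DNA was not sequenced.

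**Figure D4:**
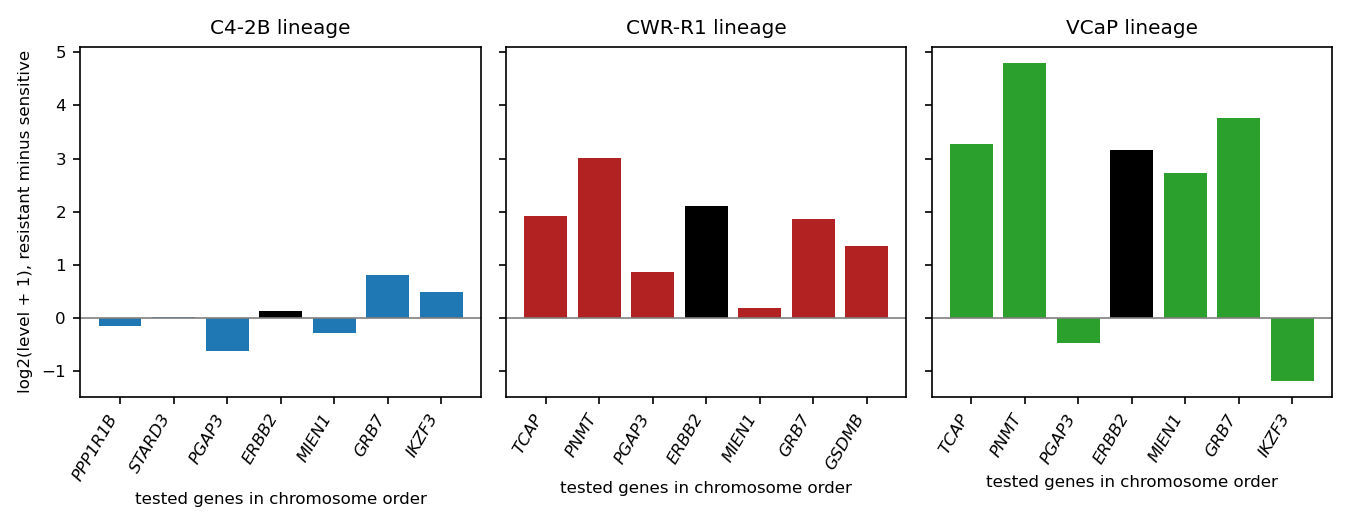
Difference in log2(level + 1) between resistant and sensitive forms (bars, from zero) for ERBB2 (black) and the 3 nearest tested genes on each side, in chromosome order, by lineage. GRB7 is higher beside ERBB2 in the C4-2B and CWR-R1 lineages and in the library labelled VCaPENZR, which was nearest to CWR-R1ENZR (r = 0.940). PGAP3 is lower in C4-2B (−0.62) and VCaP (−0.47) and higher by less than 2-fold in CWR-R1 (0.87). TCAP and PNMT are shown for CWR-R1 and VCaP because they reached the minimum level in the resistant library.

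The neighbours of HBEGF and EGF, the ligands with the largest differences, were taken in the same way. In CWR-R1, 1 of the 6 genes around HBEGF was at least 2-fold higher, PFDN1 at 38.4 and 88.0, where 9.79% of all genes were. The median of the 6 was 0.09, beside the 47.6-fold difference of HBEGF. Around EGF in C4-2B, 4 of 6 fell and 1 rose (median −0.47), where 29% of genes fell: TIFA from 24.6 to 12.0, AP1AR from 55.3 to 33.9, PLA2G12A from 45.5 to 31.7 and CASP6 from 9.33 to 6.64. ELOVL6 rose from 37.6 to 56.0. Each of these changed less than EGF.

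Among 9719 genes in all tables with a sufficient level and range, those whose log2(level + 1) followed a member most closely over the 8 libraries were ranked by Pearson correlation. The libraries of 1 table share their normalisation and the 2 replicates of a group share a line, so the values are descriptive. ERBB2 was followed by RARA-AS1 (0.998), CORO1A (0.988) and PGPEP1 (0.982), where RARA-AS1 is an antisense gene and uncertain without strand. HBEGF was followed by RNF215 (0.989), RBFOX2 (0.979) and CTTNBP2NL (0.978), and ERBB3 by MSH5-SAPCD1 (0.987), DCP2 (0.985) and NUP153 (0.982). TGFA was followed by OSBPL3 (0.974), ENPP5 (0.971) and OPTN (0.963), EGF by FAM105A (0.968), RPL37 (0.964) and TSPAN15 (0.959), and EGFR by B3GNTL1 (0.967), SULT2B1 (0.960) and PPP1R14C (0.952). No member was among the 3 closest to another member.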

How the data were processed

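For each lineage the authors deposited a table of signal values, 1 column per library, aligned to hg19 per the submitters' processing notes; aligner, counter and strand use are not named in the sources used here. Dividing each deposited signal value by the value of 1 read gave whole reads for 100% of values (tolerance 0.02 reads); these recovered counts served the intervals, edgeR and DESeq2. The genes, lists and tests were chosen with earlier results of these data known.

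In C4-2B, limma 3.58.1 was fitted to log2(level + 1) of genes reaching a level of 1 in 2 or more libraries (trend, two-sided, Benjamini-Hochberg). With 1 library per group, folds of at least 2 were counted among genes at a level of at least 5 in either library. The scripts were tested on simulated data. Up to 4 genes per pathway list were named, those with the largest change among called genes with a mean level of at least 5 in C4-2B or summed levels of at least 10 elsewhere, plus any against the majority; called genes under these minimums were added after their values were seen. Unless stated, the lists' counts and medians cover all their tested genes, of which 2 that this rule names are not reported here. Alternatives were edgeR 4.0.16, DESeq2 1.42.0, other scalings, pseudocounts, filters and folds, a replicate block, and each C4-2B library or the VCaP lineage left out.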

Additional observations from a re-analysis of the deposited data

Results flagged for a closer look

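The difference between lineages in the resistance change passed for several members in the limma fit over the 8 libraries described above. That fit has no spread between cultures of CWR-R1 or VCaP and assumes that the single libraries vary like the C4-2B replicates, which was not tested. On the log2(level + 1) scale, the change in CWR-R1 minus that in C4-2B was 3.17 for EGF, −1.32 for TGFA, 4.55 for HBEGF and 1.97 for ERBB2. The change in VCaP, measured in the library labelled VCaPENZR, minus that in C4-2B was −2.17 for TGFA, 2.09 for EGFR, 3.04 for ERBB2 and 2.11 for ERBB3. Many genes passed in this way, 54.9% and 71.5% of those tested.

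Several members, some of them named above, pointed in opposite directions between the CWR-R1 and the VCaP lineage. Each group there is 1 library, so the difference was not tested. The VCaP difference minus the CWR-R1 difference was −3.02 for EGF, −0.85 for TGFA, −2.38 for BTC, 2.38 for EGFR, 2.23 for ERBB3 and 4.05 for ERBB4, on the log2(level + 1) scale. The counting intervals of EGF and ERBB4 in CWR-R1 include no difference, and BTC was under the minimum level in both lineages.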

How the results depend on the processing

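In C4-2B the count of members called was 5 or 6 in every setting tried (5 to 6 with 1 library left out), and it was 6 where ERBB2 passed: with edgeR, with total counts as the only scaling, with the replicate block and without C4-2B replicate 1. In CWR-R1 it was 4 at 1.5-fold, through EGFR and ERBB3, against 2 at 2-fold. In VCaP it was 6 without the low-value filter and at 1.5-fold, against 5. For the mean over lineages the sign turned for ERBB3 without the VCaP lineage (−0.65); for the VCaP change minus the C4-2B change of HBEGF, not called in any setting, it turned with edgeR (−0.14), with a pseudocount of 0.5 (−0.025) and without C4-2BENZR replicate 1 (range with 1 library left out −0.13 to 0.20). The cause was not tested. The count for CWR-R1 minus C4-2B was 3 to 4 with 1 library left out. Of the other values, 727 kept their direction and side of the threshold, 21 lost a call, 4 gained one (all ERBB2 in C4-2B) and 6 moved with total counts as the scaling. That scaling put the median gene at 0.10 in C4-2B, 0.06 in CWR-R1 and 0.10 in VCaP, and made the split of called genes 4757 higher and 2923 lower in C4-2B, against 3691 and 3856.

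Replicate numbers are shared by the C4-2B groups, but the labels do not say what a number marks, and same-numbered libraries deviated together only weakly (correlation 0.0973 over 11253 genes). With the replicate block 6 of 6 members were called (ERBB2 adjusted p = 0.00963, limma) and 8248 genes against 7547. Without the low-value filter the fits over lineages tested the same 12868 genes. A fit without 1 library sets 1 library against 2, which is assumed to vary like the others. Ligands under a level of about 3, such as EGF in CWR-R1 and BTC, rest on few reads, and differences between single libraries have no replicate check.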
